A study of Mus musculus with 61 samples.

Results

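The genes described here encode the oxidative phosphorylation machinery of mouse mitochondria. They were chosen by symbol: every gene whose platform name starts with Nduf, Uqcr, Atp5, Cox4, Cox5, Cox6, Cox7 or Cox8, together with Sdha, Sdhb, Sdhc and Sdhd, provided that it had a probe set naming that gene alone. This gave 84 of the 12291 genes on the arrays, each read from the brightest of its probe sets. Of these, 77 encode structural subunits: 32 of complex I, 4 of complex II, 8 of complex III, 16 of complex IV and 17 of complex V. The other 7 are the complex I assembly factors Ndufaf1, Ndufaf3, Ndufaf4, Ndufaf5 and Ndufaf7, the supercomplex factor Cox7a2l, and Ndufs5-ps, which the platform names as a pseudogene of Ndufs5. The annotations of the array types used give the probe set of Ndufs5-ps, and that of Cox7c, different names. Ndufa11, Ndufb4 and Ndufs6 were left out because their probe sets also name other genes.

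The study followed CD4 T cells of C57BL/6 mice in culture with and without interleukin 27 (IL-27), a cytokine that drives naive T cells towards type 1 regulatory (Tr1) cells, which secrete interleukin 10. RNA was hybridised to Affymetrix expression arrays of the HT_MG-430A type (52 arrays) and the Mouse430A_2 type (9 arrays). On HT_MG-430A the control arm (ctrl) and the IL-27 arm (IL27) each had 26 arrays, taken at 18 times between 0.5 and 72 h. At 8 of the times an arm has 2 arrays and at 10 it has 1. On Mouse430A_2 there was 1 array for each of ctrl at 0, 4, 16 and 48 h, IL27 at 4, 16 and 48 h, and 2 samples named GFPP and GFPN at 48 h.

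All groups carry one and the same culture text, controls included. It describes naive CD4 cells kept with anti-CD3 at 1 µg/ml and a second antibody, written as anti-CD8, at 1 µg/ml, and IL-27 at 25 ng/ml, so the arm of each array rests on its title. Each array received 6 µg of total RNA. Times are bare numbers in the titles and are read as hours, and neither the suffix d of the second arrays nor the names GFPP and GFPN are explained in the sources used here. Nothing states that arrays of 1 time come from separate cultures, so p-values measure the spread between arrays, which may be technical.

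Complexes I and II of the inner mitochondrial membrane take electrons from NADH and succinate, complex III passes them from ubiquinol to cytochrome c, and complex IV passes them on to oxygen. Complexes I, III and IV pump protons as they do so, and complex V, the ATP synthase, uses the returning protons to make ATP. A few core subunits are encoded by mitochondrial DNA and all others, including every gene described here, by the nucleus. Resting T cells live mostly on oxidative phosphorylation, and activation through the T cell receptor sets off cell growth with increased glycolysis and the building of new mitochondria.

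The stretch of 250 bases before the start of transcription is shown for the 2 genes with the largest rise and the 2 genes that fell in the first hours of the control course, and for the 3 genes of the ATP synthase c ring, whose courses diverged late. The c ring genes were picked after their values were seen. Sequences are from RefSeq on GRCm38.p6, read 5′ to 3′ on the strand of the gene, and capitals mark a match to one of 4 motifs. Ndufa12 (chr10:94198785-94199034, plus strand) encodes an accessory subunit of complex I, and Uqcr11 (chr10:80406822-80407071, minus strand) a small subunit of complex III. Cox7a2l (chr17:83514334-83514583, minus strand) encodes a supercomplex factor of complexes III and IV, and Uqcrh (chr4:116075071-116075320, minus strand) the hinge protein of complex III. Supercomplexes were not measured, and the Cox7a2l allele of these mice was not examined. Atp5g1 (chr11:96075632-96075881, minus strand), Atp5g2 (chr15:102671048-102671297, minus strand) and Atp5g3 (chr2:73911327-73911576, minus strand) encode precursors of the same mature subunit c.
Ndufa12: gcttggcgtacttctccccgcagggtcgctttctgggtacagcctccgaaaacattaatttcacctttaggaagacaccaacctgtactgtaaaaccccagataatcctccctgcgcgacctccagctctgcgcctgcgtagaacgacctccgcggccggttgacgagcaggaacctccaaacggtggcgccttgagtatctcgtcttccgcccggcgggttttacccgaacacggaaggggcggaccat
Uqcr11: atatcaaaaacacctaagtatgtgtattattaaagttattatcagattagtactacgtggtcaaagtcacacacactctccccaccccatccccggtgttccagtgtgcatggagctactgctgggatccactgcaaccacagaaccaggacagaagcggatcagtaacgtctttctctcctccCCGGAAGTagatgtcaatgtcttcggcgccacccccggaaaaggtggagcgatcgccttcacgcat
Cox7a2l: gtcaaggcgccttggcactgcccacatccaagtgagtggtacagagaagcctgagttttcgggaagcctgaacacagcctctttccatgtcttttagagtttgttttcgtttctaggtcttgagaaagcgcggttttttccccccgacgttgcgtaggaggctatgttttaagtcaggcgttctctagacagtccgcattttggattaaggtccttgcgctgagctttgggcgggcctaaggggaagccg
Uqcrh: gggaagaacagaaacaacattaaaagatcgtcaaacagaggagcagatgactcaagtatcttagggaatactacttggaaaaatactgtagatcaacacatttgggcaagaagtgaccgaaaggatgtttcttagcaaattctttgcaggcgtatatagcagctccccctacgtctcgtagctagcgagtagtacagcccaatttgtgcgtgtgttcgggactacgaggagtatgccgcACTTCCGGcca
Atp5g1: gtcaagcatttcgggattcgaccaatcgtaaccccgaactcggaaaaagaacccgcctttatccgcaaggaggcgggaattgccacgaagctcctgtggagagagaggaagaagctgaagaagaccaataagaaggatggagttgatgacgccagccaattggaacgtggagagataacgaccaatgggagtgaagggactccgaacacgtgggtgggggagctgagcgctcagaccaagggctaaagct
Atp5g2: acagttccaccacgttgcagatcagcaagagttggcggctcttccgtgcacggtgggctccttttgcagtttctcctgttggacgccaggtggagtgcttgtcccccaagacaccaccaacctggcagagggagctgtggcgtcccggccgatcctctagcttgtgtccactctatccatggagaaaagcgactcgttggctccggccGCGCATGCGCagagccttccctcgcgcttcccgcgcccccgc
Atp5g3: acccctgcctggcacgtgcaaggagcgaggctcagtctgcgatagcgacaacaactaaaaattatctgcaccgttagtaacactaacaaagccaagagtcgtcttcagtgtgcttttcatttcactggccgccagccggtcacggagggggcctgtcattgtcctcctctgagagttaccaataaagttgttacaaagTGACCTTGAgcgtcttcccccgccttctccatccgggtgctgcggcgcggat

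The motifs were those of factors known for nuclear genes of mitochondrial proteins: the consensus of NRF1 (which leaves 1 base free), CCGGAAGT (the ETS family), the consensus of YY1 and TCAAGGTCA (ERR), each searched on both strands of the 250 bases. Windows were at hand for 69 of the 84 genes, 74 windows in all, because 5 genes had more than 1. The NRF1 motif stood in 11 of the 74 windows, or 14.9%, against 3.74% of all 32851 windows in the table. These windows belonged to Atp5c1, Atp5g2, Atp5h, Atp5k, Cox6a1, Ndufa5, Ndufa8, Ndufaf4, Sdha and Sdhd. The ETS motif stood in 3 windows (4.05%, against 2.88% of all), those of Atp5h, Uqcr11 and Uqcrh. The YY1 motif stood in the window of Atp5j (1.35%, against 0.301%) and the ERR motif in that of Atp5g3 (1.35%, against 0.387%). Of the genes shown above, Uqcr11, which rose, and Uqcrh, which fell, both hold the ETS motif, and Ndufa12, Cox7a2l and Atp5g1 hold none of the 4. G and C made up 56.9% of the bases in the windows of these genes and 53.2% in all windows. Neither base composition nor any factor's binding was tested.

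The labelled cell type was checked against marker genes. All 8 T cell markers measured (Cd3e, Cd3d, Cd3g, Cd247, Cd4, Thy1, Cd2 and Cd5) lay above their own array's median on 52 of 52 HT_MG-430A arrays. Of the other cell types, Cd8a, Itgam, Itgax, S100a8, Ncr1, Hba-a1 and Alas2 lay below the array's median on all 52, while Cd8b1 (44.3 to 313) and Ighm (380 to 3468) lay above it on all 52. Cd79a was above the median on 1 array, Ms4a1 on 6, Cd79b on 7, Fcer1g on 10, Lyz2 and Mpeg1 on 11, Cd68 and Klrd1 on 13 and Car2 on 24. The control array at 12 h stood apart from all others, with a highest correlation of 0.871 with any other array over genes. Among the oxidative phosphorylation genes Atp5d (183), Atp5g2 (241), Atp5b (849) and Atp5a1 (1203) had there less than 1 in 2 of the lowest of the 3 control arrays at 8 and 14 h. Results that rest on this array are given with and without it.

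The level of these genes rose in both arms between the first hours and 12 to 20 h and stayed up to 72 h. The median intensity over the 84 genes was 990 to 1132 on the 4 control arrays at 0.5 to 2 h, 1082 at 4 h, and 1848 to 2102 on the 7 at 12 to 20 h. It was 1715 to 1811 on the 4 arrays at 25 to 36 h and 1854 to 2019 on the 3 at 60 to 72 h. With IL-27 it was 1001 to 1138, then 1295 at 4 h, 1850 to 1991 at 12 to 20 h and 1756 to 1844 at 60 to 72 h. The ranges at 0.5 to 2 h and at 12 to 20 h did not overlap in either arm. Every array received the same mass of RNA, so an intensity is relative to the other transcripts, and fewer cells of a type and less RNA per cell cannot be told apart.

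**Figure D1:**
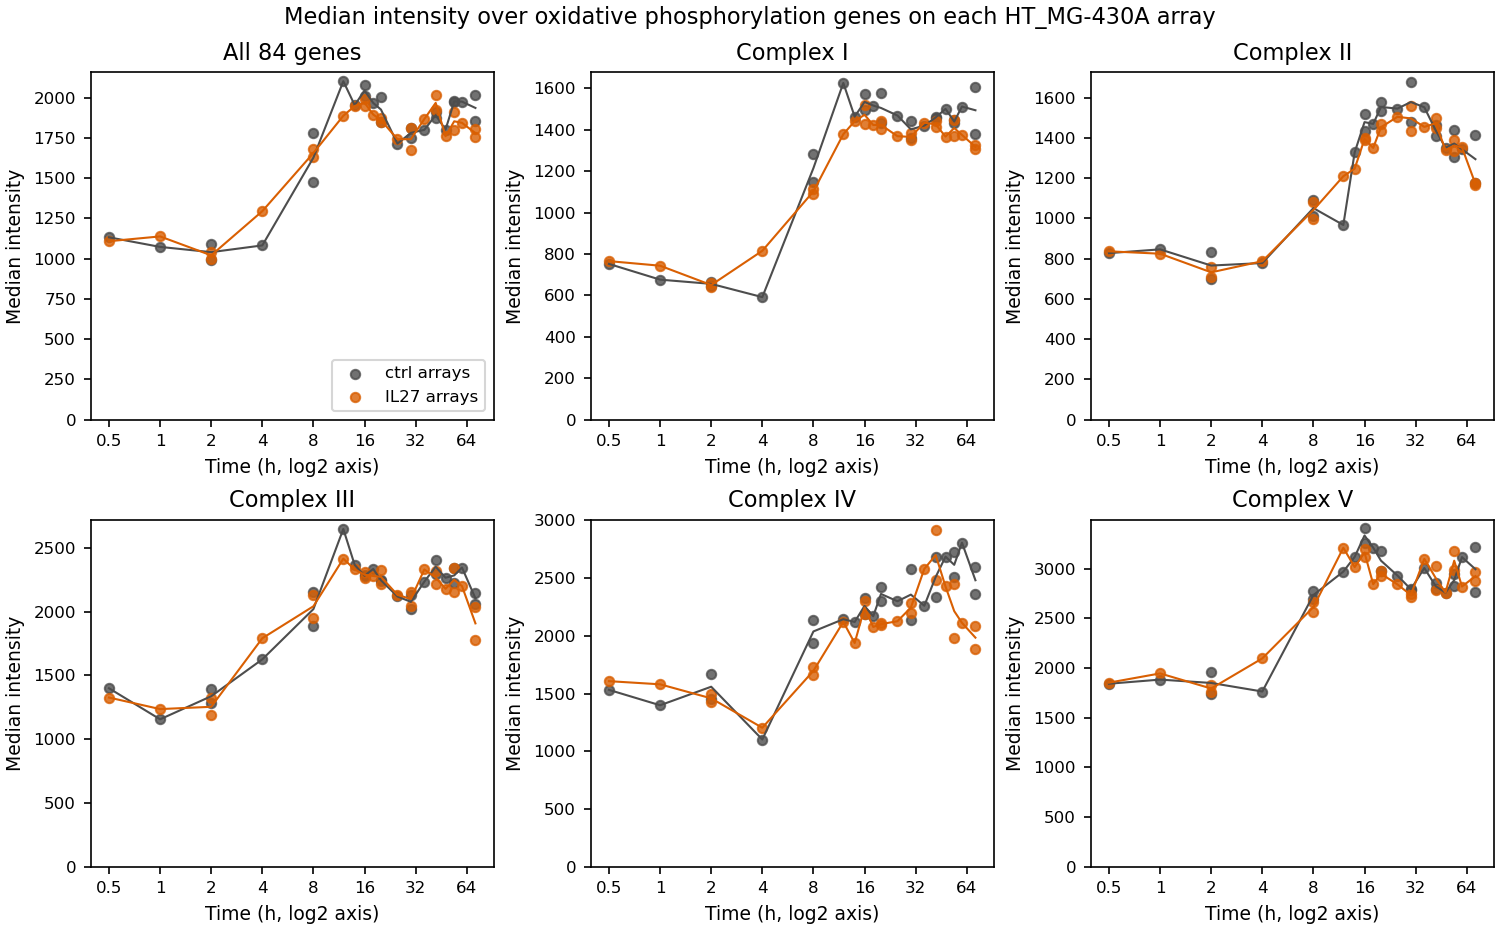
Median intensity (linear scale) over all 84 genes and over the subunits of each complex on every HT_MG-430A array, against time in hours on a log2 axis; points are arrays and lines join the mean of each time in the ctrl (grey) and IL27 (orange) arms. Over all genes the control arrays lie between 990 and 1132 at 0.5 to 2 h and between 1848 and 2102 at 12 to 20 h.

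The plot of medians by complex shows that all 5 complexes took part. In the control arm the median over complex I subunits was 648 to 752 at 0.5 to 2 h and 1434 to 1626 at 12 to 20 h, and that over complex V subunits 1737 to 1964 and 2971 to 3412. Complex IV was lowest at 4 h, at 1103 in the control arm and 1204 in the IL-27 arm, from 1 array each.

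To test the course, times were joined into bins, and differences are given on the scale log2(intensity + 32) with their standard error (SE) from 1 limma fit over all 52 arrays. P-values were adjusted by the Benjamini-Hochberg method over the 7164 genes bright enough to be tested, and a gene was called at an adjusted p under 0.05. Of the 84 genes 81 were tested. Cox4i2 (8.94 to 14.8), Cox7a1 (10.5 to 47.7) and Cox8b (11.6 to 20.7), isoforms of complex IV subunits best known from lung, muscle and brown fat, were too dim on too many arrays.

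From 0.5 to 2 h to 12 to 20 h in the control arm 71 of the 81 genes were called, 69 higher and 2 lower. This first step changed most of the transcriptome: 73% of all genes tested were called, 39.5% higher and 33.5% lower. The share of oxidative phosphorylation genes called was 87.7%. Their median difference was 0.81 (log2) and that of all genes 0.07, and 75 of 81 differences were above 0 against 53.4% of all. In 56 of the 81 genes every array at 12 to 20 h lay above every array at 0.5 to 2 h. In 1 every array lay below, and in 24 the bins overlapped. The same count was not made over all genes, so whether these numbers are unusual cannot be told. Leaving out the 12 h control array gave 75 called genes, the same 71 with Atp5a1, Atp5b, Atp5d and Atp5g2 added. Over the same step the summed level of the 8 T cell markers went from 17816 to 20400 down to 7840 to 12822, and 7 of the 8 fell. The sum over the 9 myeloid and dendritic markers went from 229 to 431 down to 136 to 193, and all 4 of those tested (Mpeg1, Fcer1g, Lyz2 and Cd68) fell. Klrd1 (-1.49 ± 0.25), Cd79b (-0.52 ± 0.15) and Car2 (-0.46 ± 0.14) fell too. The part of these markers in the rise was not tested.

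Complex I, the entry point for electrons from NADH, is the largest complex. Of its 32 subunits 29 were higher, with a median of 1.04. Ndufa12 read 622, 704 and 984 (lowest, median and highest array) at 0.5 to 2 h and 3796, 4002 and 5683 at 12 to 20 h. The bins were far apart, and the difference was 2.44 ± 0.13 (adjusted p = 1.4e-20). Ndufab1, which doubles as the acyl carrier protein of mitochondrial fatty acid synthesis, read 762, 1016 and 1059 and then 3948, 4248 and 4641, a difference of 2.11 ± 0.12 (adjusted p = 2.9e-19). Ndufc2 and Ndufc1, accessory subunits of the membrane arm, followed with 1.94 ± 0.14 and 1.90 ± 0.14. The 6 core subunits measured rose as well: Ndufs7 by 1.32, Ndufs8 by 1.29, Ndufv1 by 1.01, Ndufv2 by 0.97, Ndufs3 by 0.71 and Ndufs1 by 0.53 on the log2 scale. Ndufv3, Ndufb11 and Ndufa6 were not called, and the 12 h control array was the highest in the bin for Ndufa6 (1545, with a median of 846).

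The 5 assembly factors of complex I, which build the complex without staying in it, were all higher, with a median of 1.52. Ndufaf1 read 49.3, 80.2 and 86.8 at 0.5 to 2 h and 307, 324 and 380 at 12 to 20 h, a difference of 1.81 ± 0.11. Ndufaf4 was already high at 4 h: the control arrays at 2 h read 600 and 1393 and the array at 4 h 1752, against 423 at 0.5 h and 372 at 1 h.

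Complex II, succinate dehydrogenase, also works in the tricarboxylic acid (TCA) cycle, and all 4 of its genes were higher. Sdhd, a membrane anchor, read 419, 517 and 571 and then 700, 1239 and 1363 (1.14 ± 0.14). Sdhb, the iron-sulphur subunit, and Sdhc, the other anchor, differed by 0.68 ± 0.10 and 0.66 ± 0.16. For both the 12 h control array was the lowest of its bin (1234 and 233) and overlapped the first hours. Sdha, the flavoprotein, went from 981, 1183 and 1516 to 1597, 1700 and 1802 (0.48 ± 0.09).

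In complex III 7 of 8 subunits were higher and 1 was lower. Uqcr11 read 217, 234 and 274 and then 1048, 1094 and 1341 (2.11 ± 0.15, adjusted p = 4.5e-16), with no overlap. Uqcrh read 3706, 4267 and 4940 and then 3152, 3587 and 3822, and fell by 0.27 ± 0.08 (adjusted p = 0.0032), with overlapping bins. The Rieske iron-sulphur protein Uqcrfs1, a catalytic subunit, rose by 0.42 ± 0.06.

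In complex IV 10 of the 13 subunits tested were higher, with a median of 0.71. Ndufa4, long listed under complex I and now counted as a subunit of complex IV, went from 1399, 1491 and 1698 to 3226, 3465 and 4364 (1.22 ± 0.12). Cox6b1, Cox7a2 and Cox8a, the widely expressed forms of their subunits, differed by 0.98 ± 0.09, 0.90 ± 0.10 and 0.71 ± 0.11. Cox6a1 and Cox4i1 differed by only 0.22 ± 0.05 and 0.15 ± 0.06, and the lowest Cox4i1 value of the later bin was again the 12 h array (4112). Cox6a2, Cox6b2 and Cox8c, known from muscle and testis, lay between 11.4 and 47.3 in these bins of the control arm and were not called.

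Cox7a2l had the larger of the 2 falls. Cox7a2l read 1453, 2257 and 2376 at 0.5 to 2 h and 500, 623 and 824 at 12 to 20 h, without overlap, and fell by 1.69 ± 0.16 (adjusted p = 1.9e-12). With IL-27 the gene went from 1520, 2157 and 2453 to 441, 532 and 616 and fell by 1.93 ± 0.16.

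In complex V 13 of 17 subunits were higher, with a median of 0.59, and the 3 c ring genes went apart. Atp5g1 read 1119, 1185 and 1364 and then 2508, 3675 and 3904 (1.51 ± 0.14). Atp5g3 read 3435, 3896 and 4560 and then 5482, 5823 and 6498 (0.59 ± 0.07). Atp5g2 first went down, from 2761 at 0.5 h to 1378 at 4 h, and read 241, 3728 and 3964 at 12 to 20 h. Its difference of 0.23 ± 0.36 was not called with the 12 h control array in the fit, and was called without it. The same holds for Atp5a1, Atp5b and Atp5d, which encode the α, β and δ subunits of the catalytic head.

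**Figure D2:**
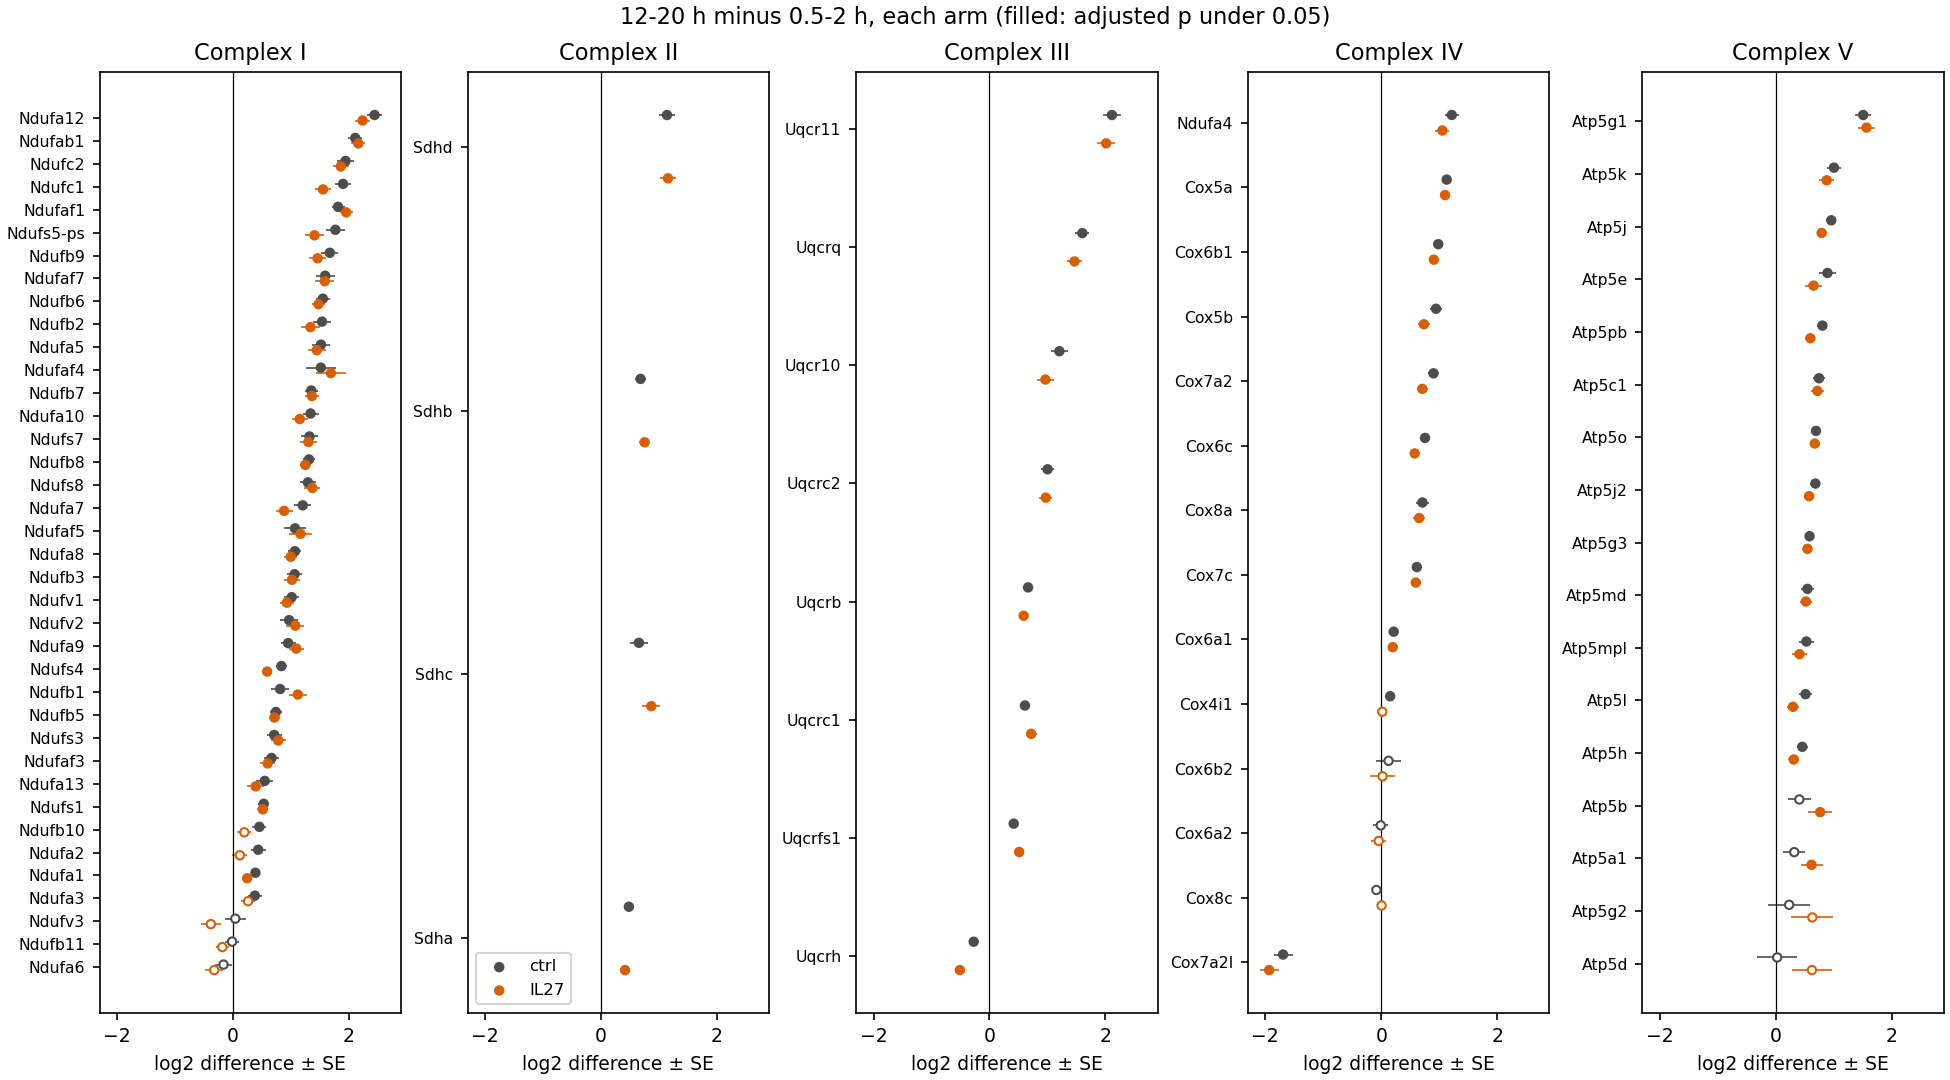
Difference between 12 to 20 h and 0.5 to 2 h for each of the 81 genes tested, by complex with its assembly factors, on the log2(intensity + 32) scale; dots are the limma estimates in the ctrl (grey) and IL27 (orange) arms, bars are SE and filled dots have an adjusted p under 0.05. Ndufa12 at the top differs by 2.44 in the control arm and Cox7a2l at the bottom of complex IV by -1.69.

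Where several bright probe sets read one of the called genes, they could be compared. In the control arm 39 such genes were called in the first step, and in 37 all probe sets went the same way. The exceptions were Atp5c1 (0.75 and -0.34) and Cox7c (0.62 and -0.44), whose direction depends on the probe set. In the late step of the IL-27 arm 10 called genes could be compared and 8 went 1 way. There Ndufa7 had 1 probe set at -0.21 against its 0.47, and Ndufab1, at -0.46, had others at -0.36 and 0.00.

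The plot of first-step differences shows the IL-27 arm close beside the control arm. In the IL-27 arm 69 of the 81 genes were called, 67 higher and 2 lower, against 73.3% of all genes (41% higher and 32.3% lower). Their median difference was 0.74, and that of all genes 0.09. Every array of the later bin lay above the earlier bin in 66 genes, below it in 2, and 13 overlapped, again with no count over all genes. Ndufa12 (2.24 ± 0.13), Ndufab1 (2.16 ± 0.12), Uqcr11 (2.01 ± 0.15), Ndufaf1 (1.95 ± 0.11), Ndufc2 (1.86 ± 0.14) and Ndufaf4 (1.69 ± 0.26) had the largest rises. Of the markers, 7 T cell markers, Klrd1, Cd79b, Car2, Ighm (-0.97 ± 0.29), Cd8b1 (-0.60 ± 0.13) and the 4 myeloid genes fell in this arm and Cd5 rose (1.01 ± 0.20). Complex II was higher in 4 of 4 genes, by 0.42 (Sdha) to 1.16 (Sdhd). Uqcrh, at 3946, 4608 and 5082 and then 2889, 3105 and 3516, fell by 0.51 ± 0.08 (adjusted p = 5.1e-07) without overlap. Cox4i1 (0.02 ± 0.06) and Atp5g2 (0.63 ± 0.36) were not called.

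Between 12 to 20 h and 25 to 36 h little changed. In the control arm 9 of the 81 genes were called, 1 higher and 8 lower, against 20.6% of all genes (9.79% higher and 10.8% lower), and the median difference was -0.07 (-0.04 over all genes). Ndufb1, an accessory subunit of the complex I membrane arm, rose by 0.63 ± 0.16 to 195, 219 and 242. The largest falls were those of Ndufaf3 (-0.59 ± 0.13, adjusted p = 0.0012), Ndufa5 (-0.53 ± 0.16), Ndufa6 (-0.53 ± 0.15), Atp5mpl (-0.45 ± 0.13), Uqcrq (-0.38 ± 0.12) and Ndufb7 (-0.31 ± 0.11). Leaving out the 12 h control array gave 8 called genes, and 5 of the 9 were among them. Without the 30 h arrays 1 was called. With IL-27 this step had 3 called genes, all higher, against 18.7% of all genes (10.4% higher and 8.26% lower): Ndufv3 (0.62 ± 0.18), Cox7a2l (0.56 ± 0.16) and Ndufb1 (0.43 ± 0.16). That count was 7 without the 12 h control array, 5 without 20 h, and 0 without 30 h or without 36 h. None of the 4 complex II genes and none of the 3 c ring genes was called in either arm.

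From 25 to 36 h to 60 to 72 h most of the genes did not pass the test in either arm, and those that did went both ways. In the control arm 19 of 81 were called, 14 higher and 5 lower, or 23.5%, against 38.3% of all genes (20.8% higher and 17.5% lower), with a median of 0.06 (0.01 over all genes). With IL-27 the late step had 29 called (35.8%), 14 higher and 15 lower, against 52.4% of all genes (25.9% higher and 26.5% lower), with a median of -0.01 (-0.01 over all genes). The later bin holds 3 arrays per arm, 2 of them at 72 h: without 72 h the counts were 5 and 13, and without 30 h the control count was 12. With each array divided by its median, which moved the median of all genes to -0.07 and -0.11, the splits were 9 higher and 10 lower in the control arm and 10 higher and 24 lower in the IL-27 arm.

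The rising genes were led by Cox6b2, Ndufv3, Cox7a2l, Ndufaf3, Ndufa6 and Ndufa13. Ndufv3, an accessory subunit at the NADH-oxidising end of complex I, read 1425, 1552 and 2071 in the control arm at 25 to 36 h and 3470, 3783 and 4775 at 60 to 72 h (1.27 ± 0.22, adjusted p = 1.1e-05). With IL-27 it read 1136, 1347 and 1964 and then 4738, 5509 and 5925 (1.90 ± 0.22, adjusted p = 1.7e-09). At 60 to 72 h 2 of the 3 IL-27 arrays were above every control array, and the arms overlapped by the other. Cox7a2l came back towards its first level, to 1439, 1670 and 1822 in the control arm (1.10 ± 0.20) and 1504, 1886 and 2083 in the IL-27 arm (1.20 ± 0.20). Uqcrh, the other gene that fell in the first step, also rose in both arms (0.30 ± 0.10 and 0.51 ± 0.10).

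Cox6b2 encodes the testis form of a complex IV subunit. It lay between 11.0 and 24.1 on every array up to 36 h. The control arrays then read 123 at 60 h and 231 and 514 at 72 h, a difference of 2.66 ± 0.26, and the IL-27 arrays 67.5, 31.96 and 147, a difference of 1.19 ± 0.26. Cox6b2 passed the filter on dim genes only through arrays from 48 h on, where it is high, so its differences are given as a description and its calls, which the counts include, as no support. With no filter the limma adjusted p was 1.27e-10 in the control arm and 0.00022 in the IL-27 arm. The values of the 2 arms overlap, since the highest IL-27 array is above the control array at 60 h. The difference between the arms in this step was compared only once the data had been looked at. With no filter it was -1.48 ± 0.36, with a limma adjusted p of 0.021. No other of the 81 genes was called in that comparison, in which 0.907% of all genes were called (0.6% higher and 0.307% lower), and Cox6b2 was not called without 25, 30, 36 or 72 h.

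The falling genes were led by Ndufaf4, Ndufb1, Atp5g1, Ndufa5 and Atp5g3 in the control arm. Ndufaf4 went from 1270, 1335 and 1466 to 336, 439 and 501 there (-1.61 ± 0.31, adjusted p = 6.6e-05). With IL-27 it went from 1188, 1431 and 1610 to 217, 218 and 344 (-2.33 ± 0.31, adjusted p = 4.3e-08). Ndufb1 dropped back to 36.5, 63.3 and 94.5 in the control arm and 48.3, 57.3 and 75.0 in the IL-27 arm (-1.41 ± 0.19 and -1.44 ± 0.19). Ndufa5 fell to 443, 511 and 630.5 in the control arm (-0.74 ± 0.19) and to 258, 296 and 467 in the IL-27 arm (-1.43 ± 0.19). In the IL-27 arm Ndufa4 (-0.72 ± 0.15), Ndufa12 (-0.70 ± 0.15), Uqcr11 (-0.58 ± 0.19), Ndufab1 (-0.46 ± 0.15), Ndufs1 (-0.42 ± 0.12) and Ndufaf1 (-0.41 ± 0.14) were also called lower, among them Ndufa12, Ndufab1 and Uqcr11, which had the largest first rises. The difference between the arms was not called for Ndufaf4 (-0.72 ± 0.44, adjusted p = 0.67), Ndufa5 (-0.69 ± 0.27, 0.33), Atp5g1 (-0.65 ± 0.24, 0.27), Ndufa4 (-0.48 ± 0.21, 0.44) or Ndufv3 (0.63 ± 0.31, 0.52).

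The 3 c ring genes ended apart. Atp5g1 stood at 2830, 3069.9 and 3164 at 25 to 36 h in the control arm and at 1334, 1861 and 2099 at 60 to 72 h, the level of its first hours being 1119 to 1364. It fell by 0.79 ± 0.17 (adjusted p = 0.00024), and in the IL-27 arm, from 3002, 3082 and 3340.2 to 919, 1004 and 1559, by 1.44 ± 0.17 (adjusted p = 3.2e-09). Atp5g3 fell less, by 0.29 ± 0.09 in the control arm and 0.30 ± 0.09 in the IL-27 arm. Atp5g2 was not called (0.20 ± 0.44 and 0.10 ± 0.44) and read 3706, 3776 and 4142 in the control arm at 60 to 72 h.

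By complex, the late step in the IL-27 arm gave 6 higher and 5 lower of 32 in complex I, 0 of 4 in complex II, 1 higher and 4 lower of 8 in complex III, 5 higher and 1 lower of 13 in complex IV, and 2 lower of 17 in complex V. In the control arm it gave 6 and 2, 0, 2 and 0, 4 and 0, and 0 and 2 in the same order. The complex IV genes called higher in both arms besides Cox6b2 were Cox4i1 (0.21 ± 0.07 in the control arm) and Cox8a (0.43 ± 0.13). Over this step Klrd1, the one NK marker tested, rose by 2.26 ± 0.31 in the IL-27 arm, where the summed NK markers reached 174 to 353 at 60 to 72 h against 44.5 to 63.3 in the control arm. In the same arm 6 of the 8 T cell markers rose, and their sum went from 10251 to 12575 up to 17363 to 20459.9. Cd68 (1.20 ± 0.20) and Cd8b1 (0.69 ± 0.16) also rose there. In the control arm 4 T cell markers, Cd68 (0.73 ± 0.20) and Cd8b1 (0.74 ± 0.16) rose and Ighm (-0.94 ± 0.35) fell. The part of these markers in the late step was not tested.

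**Figure D3:**
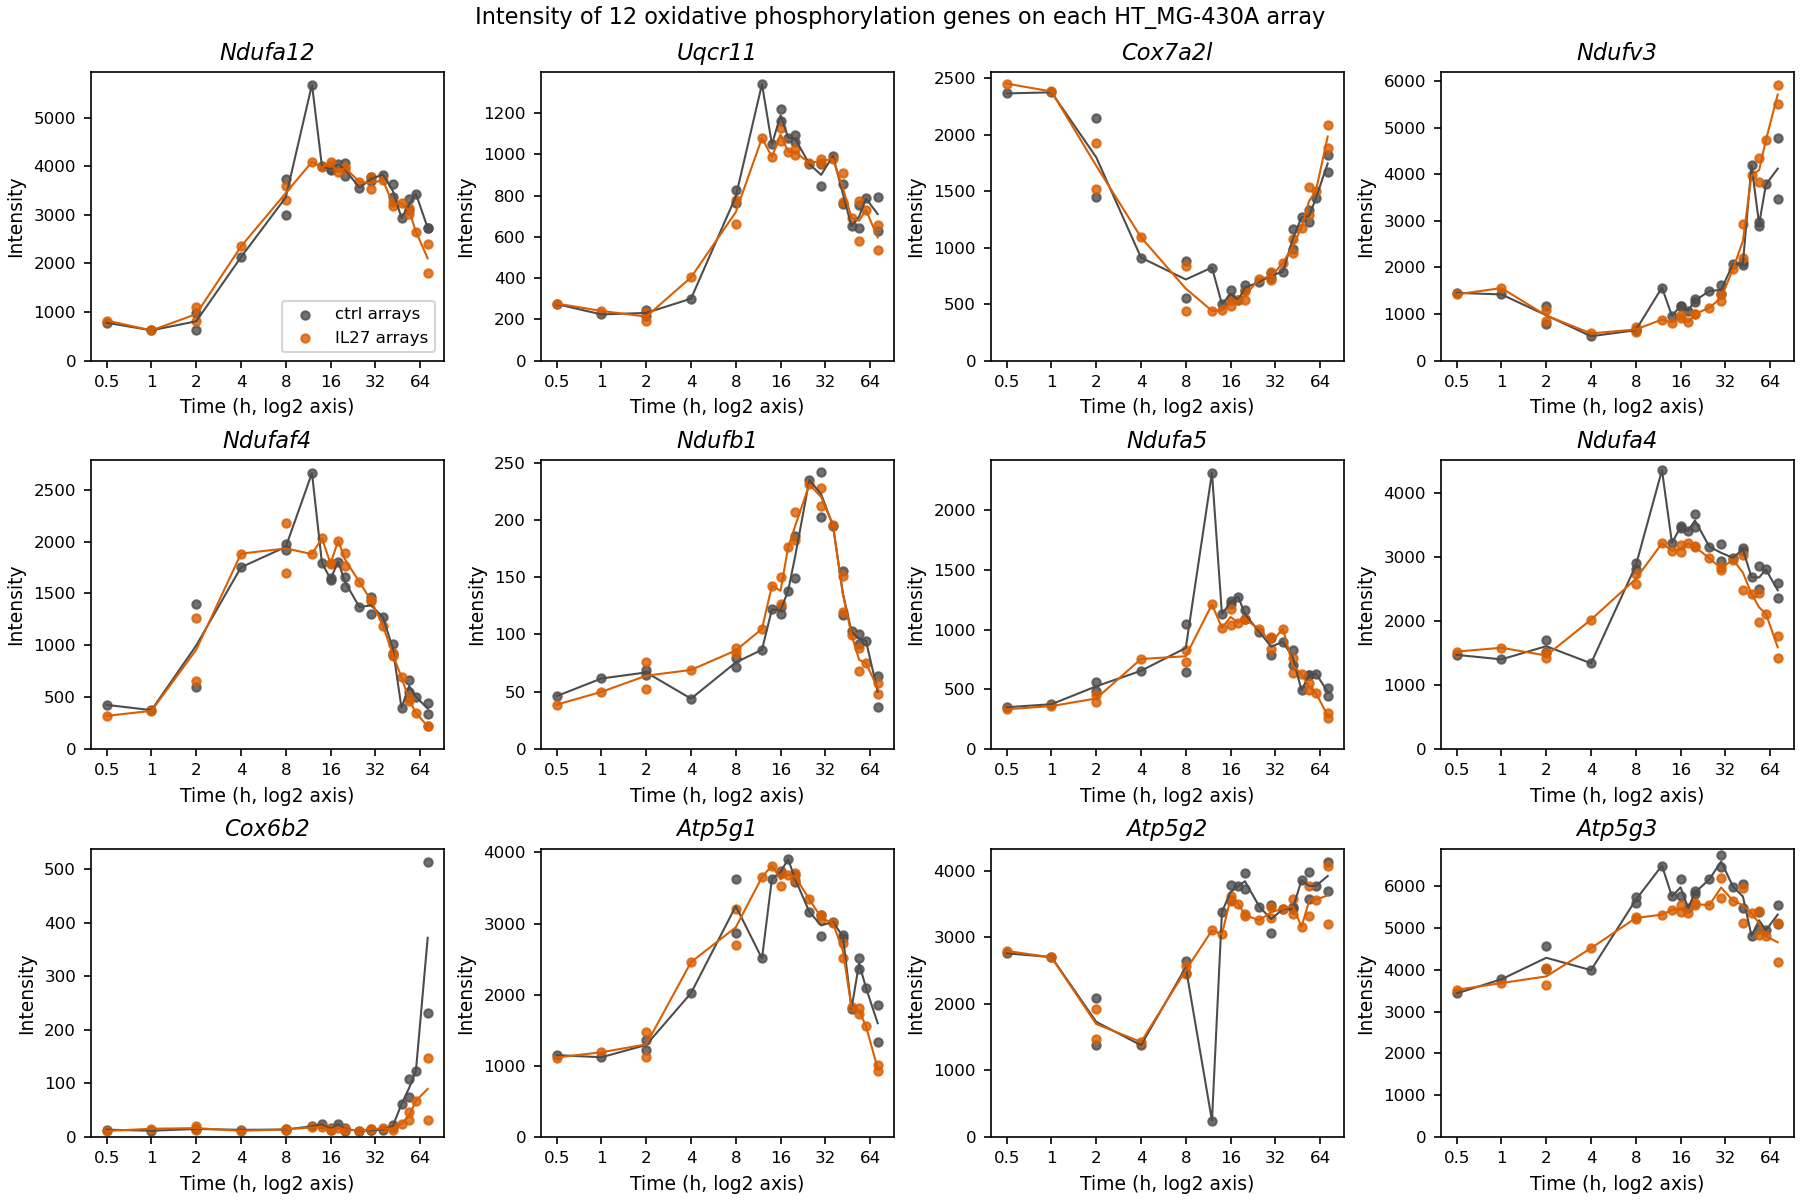
Intensity (linear scale) of 12 genes on every HT_MG-430A array against time in hours on a log2 axis; points are arrays and lines join the mean of each time in the ctrl (grey) and IL27 (orange) arms. Cox7a2l falls to a low at 12 to 20 h and returns, Ndufb1 is highest at 25 to 36 h (195 to 242 in the control arm), and the 12 h control array stands out in Atp5g2 at 241.

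The plot of 12 courses shows that the genes did not share 1 peak. By the mean of each bin in the control arm, 29 of the 81 genes tested were highest at 12 to 20 h and 29 at 60 to 72 h, 10 at 42 to 54 h and 9 at 25 to 36 h. The lowest bin was 0.5 to 2 h for 62 genes and 4 to 8 h for 11. With IL-27, 28 genes were highest at 12 to 20 h, 23 at 60 to 72 h and 18 at 42 to 54 h, and 66 were lowest at 0.5 to 2 h. Bins were ranked by their means alone, with no test between them. No such count is given over all genes, so whether these numbers are unusual cannot be told.

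The arms were then compared directly at equal times, with 1 coefficient for IL-27 in each of 3 windows of the same arrays. In the early window, 0.5 to 4 h with 5 arrays per arm, 1 of the 81 genes was called, and it was higher, against 2.33% of all genes (1.8% higher). The median difference, IL27 minus ctrl, was 0.04, and -0.03 over all genes, with 59 genes above 0 and 22 below. Of all genes 38.8% were above 0. Cox4i1, the widely expressed form of its complex IV subunit, read 4164, 4452, 4638, 4200 and 3501 on the control arrays at 0.5, 1, 2 (both arrays) and 4 h. In the same order the IL-27 arrays read 4570, 4785, 4775, 4619 and 4696, each above its control. At 2 h, however, the IL-27 array at 4619 lay below the control array at 4638. The difference over the window was 0.17 ± 0.05 (adjusted p = 0.049). Cox4i1 was not called without any 1 of the 4 times. On the Mouse430A_2 arrays at 4 h it went the other way, with 11226 in the control arm and 9496 with IL-27.

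In the middle window, 8 to 20 h with 9 arrays per arm, 10 genes were called, 1 higher and 9 lower, against 10.7% of all genes (4.83% higher and 5.86% lower). The median difference was -0.08 (-0.02 over all genes), and 62 of 81 differences were below 0. Above 0 were 19, against 45.7% of all genes. Leaving out the 12 h control array gave 2 called genes, of which Uqcrfs1 was 1 of the 10 and Ndufa3 was new. In this window 5 of the 8 T cell markers were called, Cd2 (1.17 ± 0.19) and Cd247 (0.73 ± 0.08) higher with IL-27 and Thy1 (-0.93 ± 0.12), Cd4 (-0.52 ± 0.08) and Cd3g (-0.36 ± 0.09) lower. Their summed level at 12 to 20 h was 7840 to 12822 in the control arm and 10214 to 12170 with IL-27. Of other cell types, Cd8b1 (-0.58 ± 0.11), Ighm (-0.65 ± 0.17) and Car2 (-0.34 ± 0.10) were lower and Mpeg1 (0.18 ± 0.05) higher, and the part of these markers was not tested. The count of oxidative phosphorylation genes called was 6 without 14 h, 3 without 16 h, 4 without 18 h and 0 without 20 h, and 5 (2 higher and 3 lower) with each array divided by its median. Uqcrfs1 was higher with IL-27 in 8 of 9 pairs of arrays. Suffixes were not shown to pair the arms, so at times with 2 arrays pair counts may depend on how arrays were matched. Here and below they are a description, and the fit does not use pairs. At 12 to 20 h its 7 control arrays read 2262 to 2493 and its 7 IL-27 arrays 2620.5 to 2779, without overlap, and the difference over the window was 0.14 ± 0.04 (adjusted p = 0.0098).

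The 9 lower genes came from 4 complexes and 1 assembly factor, and each differed by 0.30 or less on the log2 scale. Ndufv3 (-0.30 ± 0.09), Ndufa7 (-0.21 ± 0.06) and Ndufa10 (-0.14 ± 0.05), accessory subunits of complex I, were lower with IL-27 in 8, 9 and 9 of the 9 pairs. The assembly factor Ndufaf3 differed by -0.21 ± 0.07 (8 of 9 pairs). Of complex III, Uqcr10 (-0.20 ± 0.07) and Uqcrh (-0.14 ± 0.05) were lower in all 9 pairs. Of complex IV it was Cox5b (-0.13 ± 0.04, 8 of 9), and of complex V Atp5k (-0.23 ± 0.06, 8 of 9) and Atp5j (-0.14 ± 0.04, 7 of 9), which encode subunit e and coupling factor 6. All 9 had an adjusted p between 0.012 and 0.048 and were not called without the 12 h control array, which read 3554 for Atp5k and 8133 for Cox5b, the highest of its bin.

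In the late window, 25 to 72 h with 12 arrays per arm, 4 genes (4.94%) were called, all lower, against 18.5% of all genes (8.78% higher and 9.76% lower). The median difference was -0.05 (-0.01 over all genes), with 60 of 81 below 0. Above 0 were 21, against 45.5% of all genes. Ndufa4 was lower with IL-27 in 12 of 12 pairs, with a difference of -0.26 ± 0.06 (adjusted p = 0.0013). The gap was small at 25 h, 3165 against 2982, and wide at 72 h, where the control arrays read 2599 and 2364 and the IL-27 arrays 1763 and 1415. Atp5g1 was lower in 9 of 12 pairs (-0.23 ± 0.07, adjusted p = 0.02), with 2099 against 1559 at 60 h, and 1334 and 1861 against 919 and 1004 at 72 h. Cox6b2, which passed the filter only through this window, was lower in 8 of 12, as a description. With no filter its difference was -0.56 ± 0.14 (limma adjusted p = 0.007). Ndufa10, an accessory subunit on the matrix side of complex I, was lower in 11 of 12 (-0.13 ± 0.04, adjusted p = 0.02). Its 3 control arrays at 60 to 72 h read 2391 to 2530.4 and its IL-27 arrays 1903 to 2322, without overlap. Without 54 h or without 72 h 2 genes were called, and without the 12 h control array 6, with Ndufb11 and Ndufv1 added. Over this window 2 of the 8 T cell markers, Cd247 (0.33 ± 0.07) and Cd5 (0.47 ± 0.11), were higher with IL-27 and 1, Cd4 (-0.30 ± 0.07), was lower. Of the other cell types, Klrd1 was higher (0.63 ± 0.16), and Cd8b1 (-0.62 ± 0.09), Car2 (-0.57 ± 0.09) and Mpeg1 (-0.14 ± 0.05) were lower. Their part in these differences was not tested.

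**Figure D4:**
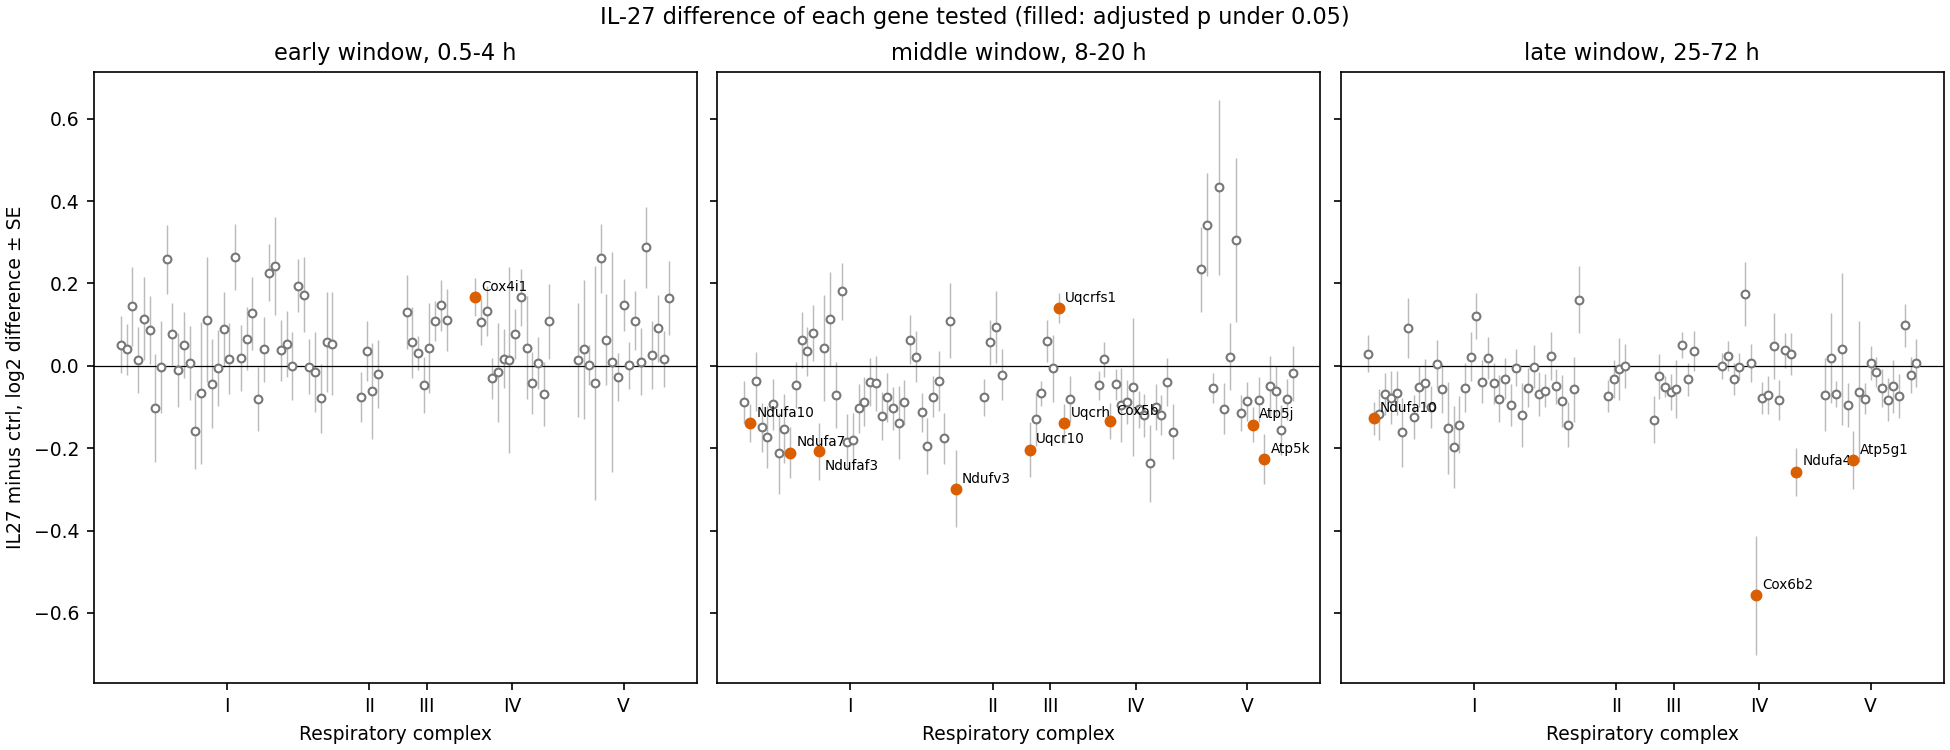
Difference between the IL27 and ctrl arms (IL27 minus ctrl, log2(intensity + 32) scale) of each of the 81 genes tested in 3 time windows, ordered by complex with its assembly factors; dots are the limma estimates, bars are SE, and filled dots are named and have an adjusted p under 0.05. Named genes lie between -0.56 (Cox6b2, late) and 0.17 (Cox4i1, early).

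The plot of IL-27 differences shows most genes close to 0 in every window. The 4 complex II genes differed by -0.08 to 0.09 in the 3 windows, and none was called. Of the isoform pairs, Cox6b1 differed by 0.01 ± 0.05 in the late window, Cox7a2 by -0.07 ± 0.05, Cox8a by 0.04 ± 0.04 and Cox6a1 by 0.00 ± 0.03, and in complex IV the genes called in that window were Ndufa4 and Cox6b2.

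Whether the IL-27 difference changed from the early to the late window was tested directly. Of the 81 genes 5 were called, all going down, against 7.09% of all genes (3.48% going up and 3.62% going down). They were Ndufa7 (-0.38 ± 0.10, adjusted p = 0.012), Atp5e (-0.36 ± 0.10, 0.023), Ndufa4 (-0.36 ± 0.11, 0.031), Ndufs4 (-0.25 ± 0.08, 0.032) and Ndufb2 (-0.30 ± 0.10, 0.048). The median was -0.08 (0.02 over all genes), with 66 of 81 below 0. Above 0 were 15, against 53.4% of all genes. The early window has 1 array per arm at 4 h. That control array was low: Atp5e read 948 there and 1683 in the IL-27 arm, Ndufa7 510 and 907. On the Mouse430A_2 arrays at 4 h, Atp5e read 4361 in the control arm and 3480 with IL-27, and Ndufa7 2007 and 1651. Ndufa4 and Ndufb2 were lower with IL-27 on that pair too, and Ndufs4 was higher (1609 in the control arm and 1683 with IL-27). Without 4 h none of the 81 was called, and the count was 2 without 1 h, 3 without 42 h, 2 without 54 h, 3 without 72 h and 0 without the arrays of suffix d.

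Genes of the same pathways outside the symbol rule, from lists drawn up with earlier results of these data known, moved alongside in the first step. Of the 17 TCA cycle genes measured of 19, 13 were higher and 1 lower in the control arm (median 0.58, against 0.07 over all genes, of which 39.5% were higher and 33.5% lower), led by fumarase Fh1 (2.25 ± 0.12), Dlat (1.98 ± 0.14) and Mdh2 (0.88 ± 0.07). Of 11 of 15 genes for electron carriers and ubiquinone synthesis, 9 were higher (median 1.03), among them Coq3 (2.36 ± 0.16), Cyc1 (1.45 ± 0.11) and Coq7 (2.55 ± 0.22). Of 26 of 34 assembly factors outside the rule 21 were higher and 1 lower (median 1.07), led by Uqcc2 (2.43 ± 0.16), Tmem70 (1.85 ± 0.13) and Bcs1l (2.06 ± 0.17). Regulators of mitochondrial gene expression were split, with 7 higher and 5 lower of 17 of 19 (median 0.16), shares close to those of all genes: Ssbp1 (1.34 ± 0.12) and Mterf4 (0.92 ± 0.11) rose and Yy1 (-0.68 ± 0.09) fell. In the IL-27 arm the counts were 12 and 0, 9 and 0, 23 and 1, and 9 and 3.

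In the late step more genes of each list were called lower than higher in the IL-27 arm: TCA cycle 3 higher and 9 lower, carriers 1 and 6, assembly factors 3 and 14, regulators 0 and 8. Of all genes 25.9% were higher and 26.5% lower. The control arm gave 3 and 3, 1 and 2, 3 and 5, and 1 and 6, with 20.8% of all genes higher and 17.5% lower. Pprc1 (-1.59 ± 0.25), Polrmt (-1.09 ± 0.20) and Ssbp1 (-0.65 ± 0.15) led the regulators in the IL-27 arm. No gene of the 4 lists was called for the difference between the arms in this step. Without 72 h the counts in the IL-27 arm were 2 and 2, 1 and 1, 2 and 4, and 0 and 6. In the late IL-27 window, where 8.78% of all genes were higher and 9.76% lower, 2 TCA cycle genes were higher and 5 lower, with Fh1 at -0.31 ± 0.07, Suclg1 at 0.24 ± 0.06 and Pcx, which makes oxaloacetate from pyruvate, at 0.42 ± 0.11. There 1 carrier gene, Coq6 (-0.21 ± 0.06), and 4 assembly factors, among them the copper chaperone Cox17 (-0.33 ± 0.07), Acad9 (-0.25 ± 0.05) and Tmem70 (-0.26 ± 0.07), were lower, and no regulator was called.

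The Mouse430A_2 arrays give a separate view with 1 array per condition. The median over the members was 3508 in the control arm at 0 h, 3559 at 4 h, 4955 at 16 h and 4267 at 48 h. From 0 to 16 h 66 of the 79 genes bright enough were higher, 12 lower and 1 the same to all decimals. Of all 6016 genes 52.5% were higher. The median log2 difference was 0.54 against 0.06 over all genes. Of the 79 genes 12 were more than 2-fold higher, and 18.1% of all genes were. Atp5g1 went from 1731 to 6242, Ndufa12 from 5059.9 to 10009, and Uqcr11 from 955 to 2569, while Cox7a2l went from 5183 to 1329. At 4 h 38 genes were higher and 41 lower than at 0 h, and Ndufaf4, at 8640.3 against 2304, stood highest. These pairs of single arrays have no test.

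For IL-27 on this array type, the 3 times gave 1 array per arm each. The same limma test called none of the 79 genes and none of the 6016, and 4 of the 79 had an unadjusted p under 0.05. The median difference was -0.10 (-0.07 over all genes), and 64 of 79 were below 0. Above 0 were 15, and only 29.5% of all genes were above 0. At 4 h alone 16 of the 79 were higher and 63 lower with IL-27. The median log2 difference at 4 h was -0.19, and -0.16 over all genes, of which 26.8% were higher. Ndufa4 read 4103, 6202 and 4760.4 in the control arm at 4, 16 and 48 h and 3212, 5265 and 4408 in the IL-27 arm, lower at each time (-0.23 ± 0.09, adjusted p = 0.65). Atp5g1 was also lower at each time, with 4550.4, 6242 and 3667 against 4295, 6018 and 2711 (-0.19 ± 0.11, adjusted p = 0.74). Between GFPP and GFPN 35 genes were higher, 41 lower and 3 the same to all decimals, none differed by 2-fold, and they ranged from 0.15 (Ndufaf3) to -0.40 (Cox6a2) on the log2 scale.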

How the data were processed

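The authors deposited 1 intensity per probe set and array, made with MAS5 per the submitters' processing notes. How arrays were scaled and the genome build are not stated in the labels. Some Mouse430A_2 values are identical between arrays, for example Ndufa5 at 48 h in both arms (3917). Of 22626 probe sets 20173 name 1 gene, 942 several and 1511 none in the platform annotation; each gene was read from its brightest single-gene probe set. Array medians were 28.0 to 36.6 (HT_MG-430A) and 70.7 to 78.9 (Mouse430A_2), and the types were fitted separately. Tests used limma 3.58.1 (lmFit, eBayes with trend; R 4.3.3) after adding 32 to each intensity and taking log2, for genes above their array's median on at least 5 arrays, with Benjamini-Hochberg adjustment over all genes tested and a threshold of 0.05. Times within a bin or window served as replicates. The fits were tested on simulated data. The number of arrays limits the precision.

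Named were all called genes for IL-27, the 6 largest called differences each way for the courses, complex II, Ndufa4, the isoform families, genes below the filter and the 3 smallest adjusted p-values of each list; others named were chosen after their values were seen. Members and lists were chosen with earlier results of these data known, and the late-step difference between arms was added after seeing the data. Alternatives changed the pseudocount (1 or 100), filter, scaling, probe set rule, members, blocks and arrays. Promoters were RefSeq windows on GRCm38.p6.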

Additional observations from a re-analysis of the deposited data

Results flagged for a closer look

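An array far from the others of its bin was found in 37 of 352 groups of 4 to 7 arrays, of named genes and of the median over all genes. Chance alone gives about 1 in 20 for independent groups of like replicates. Here groups join several times and share arrays, so that rate is only a guide. In 23 of the 37 the array was the 12 h control array. It was the lowest of its 12 to 20 h bin, in intensity, for Atp5g1 2508, Atp5g2 241, Cox4i1 4112, Ndufb2 899, Sdhb 1234 and Sdhc 233. It was the highest for Atp5k 3554, Cox5b 8133, Cox6a1 7818, Cox6a2 44.3, Cox6b1 4723, Cox7a2 5886, Ndufa12 5683, Ndufa13 2712, Ndufa4 4364, Ndufa5 2317, Ndufa6 1545, Ndufa7 2116, Ndufaf4 2662, Ndufb7 3521, Ndufc1 2144, Ndufc2 4302 and Uqcrq 2808. The cause was not tested. Flags on all other arrays together, listed next, were no more frequent than that 1 in 20.

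Among the other control arrays, those that stood apart in their bin were Ndufa6 at 2 h (suffix d) (826), Atp5g2 at 30 h (suffix d) (3064), Ndufa10 at 42 h (suffix d) (2436) and Ndufab1 at 48 h (3562). In the IL-27 arm they were Ndufc1 at 0.5 h (504), Atp5mpl at 12 h (2921), Cox6b1 at 12 h (3176), Ndufa10 at 12 h (2156), Ndufs4 at 16 h (1349), Sdhc at 16 h (655), Ndufa7 at 36 h (1592), Ndufc1 at 36 h (1812), Ndufaf1 at 42 h (398) and Sdhb at 54 h (suffix d) (2392).

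For 6 genes a difference in effect between windows or arms was flagged, and for Cox6b2 it is a description only. The IL-27 difference went down from the early to the late window for Ndufa7 (-0.38), Ndufa4 (-0.36), Atp5e (-0.36), Ndufb2 (-0.30) and Ndufs4 (-0.25) on the log2 scale, and 0 of them were called without 4 h. The late step of Cox6b2 was smaller in the IL-27 arm (IL27 minus ctrl -1.48), with 3 arrays per arm in the later bin. The gene passed the filter only through arrays from 48 h on. That comparison was added after the data had been seen, and its call was lost in 5 alternatives.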

How the results depend on the processing

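No result of a named gene changed sign where it was called in the main fit or in the alternative. Sign changes of results called in neither were not counted. Of 100 called results of named genes, 52 were called under every alternative and 48 were lost in at least 1. The cause was not tested for any change. The early IL-27 count (1) was 0 with a pseudocount of 1, with no filter, with a filter at the median gene and without arrays of suffix d, 2 with each array divided by its median or without the 12 h control array, 3 as the mean of single-time contrasts, and 0 to 0 leaving out each time. The middle count (10) was 4 with no filter, 5 with each array divided by its median, 2 without the 12 h control array, 4 without suffix d, 25 (5 higher and 20 lower) as single-time contrasts, and 0 to 12 leaving out each time. The late count (4) was 2 without suffix d and 2 to 5 leaving out each time. The late minus early count (5) was 3 with no filter, 0 without suffix d and 0 to 6 leaving out each time.

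For the first step the counts were 66 to 75 (control) and 67 to 72 (IL-27) leaving out each time. For the second step in the control arm (9) it was 3 without suffix d and 1 to 11 leaving out each time. In the IL-27 arm (3) it was 5 with a filter at the median gene, 6 (2 higher and 4 lower) with each array divided by its median, 5 with the mean of all probe sets, 7 without the 12 h control array and 0 to 5 leaving out each time. For the late step in the control arm (19) it was 12 without suffix d and 5 to 18 leaving out each time; in the IL-27 arm (29) it was 17 and 13 to 27. The late-step difference (1) was 0 with a pseudocount of 1 and with a filter at the median gene, and 0 to 1 leaving out each time. On Mouse430A_2 it was 0 to 0.

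Suffixes were not shown to pair the arms: the correlation of deviations at the 8 times with 2 arrays was 0.23 to 0.76 at 7 of them, over 0.5 at 6, but -0.01 at 30 h. With suffix d as a replicate block the early count was 0, and with time and suffix as a replicate block, added after seeing the data, 2; the other counts moved by less than 1.5 times under either block.

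Dim genes such as Cox6b2 before 42 h lie below their array's median, so their differences depend on the pseudocount. Replicates at 10 of 18 times are lacking, and the late bin has 3 arrays per arm.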
